A study of Stylosanthes guianensis with 9 samples.

Results

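A total of 73 genes of the 54199 in stylo root tips had RNA above a set limit at 24 h after germination and were nearly absent later. They were chosen by the values themselves. Each had at least 10 RPKM in all 3 libraries at 24 h, and at most 1 RPKM in the 3 libraries at 48 h and in replicates 1 and 2 at 72 h. RPKM is the number of reads of a gene scaled by its length and by the total reads of the library. The members were 0.808% of the 9032 genes that reached 10 RPKM in each 24 h library, which are called genes on at 24 h. Because the rule used the levels at all 3 times, the fall after 24 h is described here without a test.

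Stylo (Stylosanthes guianensis) is a pasture legume, and the genotype was Reyan No. 2. The samples were roots taken 24, 48 and 72 h after germination, with 3 replicates at each time, and the series description gives the tissue as root tips. No treatment was stated, and neither was the number of seedlings in a sample, nor whether replicates came from separate plantings. Each p-value therefore covers no more than sample-to-sample spread, and part of that spread may be technical.

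In the first days after germination the root emerges from the seed, and its tip holds the dividing meristem and the root cap that protects it. A dry seed stores RNA made during its formation, and much of this RNA is broken down while the seedling begins to make its own. In some plants the root cap releases files of attached cells, called border-like cells, which is the subject named in the title of the series. These processes are background, and none of them was measured here. The gene IDs are those of an assembly, in which a component (c and a number) groups similar sequences that are split into genes (g and a number). The files do not pair these IDs with gene names, so the functions of the members were not analysed, the tissue could not be checked against marker genes, and only 2 IDs are printed. The other members are given by their rank in mean RPKM at 24 h. In a bulk sample, fewer cells of a type and less RNA per cell cannot be told apart.

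Library totals lay between 28453545 and 37783453 reads. The RPKM values could be turned back into whole reads, which gives an estimate of the depth behind each level. In genes with few reads the recovered number may be too small. Replicate 3 at 72 h held nearly the same values as replicate 1. It was left out of the rule, and was averaged with replicate 1 as 1 sample in means, so that n was 2 at 72 h. Of the members, 65 had equal reads in both libraries and 8 had more in replicate 3, by at most 6 reads, which took 1 member to 1.08 RPKM. Replicate 1 at 24 h and replicate 2 at 72 h stood apart, with 24907 and 27888 genes at 0, against 8585 to 12163 in the other libraries.

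The members covered a wide range of levels at 24 h. Their means lay between 11.5 and 2359 RPKM, with a median of 27.7 RPKM. One member exceeded 500 RPKM, 6 reached 100 RPKM, 14 reached 50 RPKM and 35 reached 30 RPKM. Their median rank among all 54199 genes by the 24 h mean was 4572, and 6 lay among the first 1000.

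The highest member, c1697_g1, stood far above the rest. Its level was 2720, 2139 and 2219 RPKM in replicates 1, 2 and 3 at 24 h, where it ranked 10, 13 and 8 among all genes. It had 0.599, 0.605 and 0.520 RPKM at 48 h, and 0 and 0.249 RPKM in replicates 1 and 2 at 72 h. In reads these levels were 93854, 77081 and 86591 at 24 h, 24, 24 and 22 at 48 h, and 0 and 8 at 72 h. The 3 libraries at 48 h were close to each other, and all lay above both libraries at 72 h. The mean was 2359 ± 315 RPKM at 24 h (SD, n = 3), 0.575 ± 0.0474 RPKM at 48 h (SD, n = 3) and 0.125 ± 0.176 RPKM at 72 h (SD, n = 2). The 48 h mean was 0.0244% of the 24 h mean. This gene alone held 40.8% to 43.0% of the reads of all members in each 24 h library.

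The next members by level differed in where they kept reads. The member ranked 2 had 353.4, 275.8 and 278.4 RPKM at 24 h, and it was above 0 in each later library, with 0.0772, 0.468 and 0.146 RPKM at 48 h and 0.149 and 0.0482 RPKM at 72 h. The member ranked 4 had 266.2, 230.9 and 217.3 RPKM at 24 h and 0.0741, 0.0374 and 0.0351 RPKM at 48 h, and both libraries at 72 h were at 0. The member ranked 5 showed the opposite order, with 204.8, 112.3 and 160.5 RPKM at 24 h, no read in any 48 h library, and 0.108 and 0.0467 RPKM at 72 h. These last values were 6 and 2 reads, so the order between 48 h and 72 h rests on few reads in this gene. Against 3 reads over the 3 libraries of 48 h, its mean was at least 8649-fold higher at 24 h. This bound covers counting error only, with each read taken as an independent count.

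The second ID printed is c33324_g1, the highest member with no read in any of the 5 later libraries of the rule. It is a short gene of 265 nucleotides that ranked 10 among the members. Its level at 24 h was 89.9, 70.2 and 55.4 RPKM, which was 729, 594 and 508 reads. At 48 h and at 72 h it was at 0 throughout, in replicate 3 at 72 h too. Against 3 reads over the libraries of a time, it was at least 687-fold lower at 48 h and at least 414-fold lower at 72 h than at 24 h. The second bound is lower because 72 h had fewer libraries and fewer reads.

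**Figure D1:**
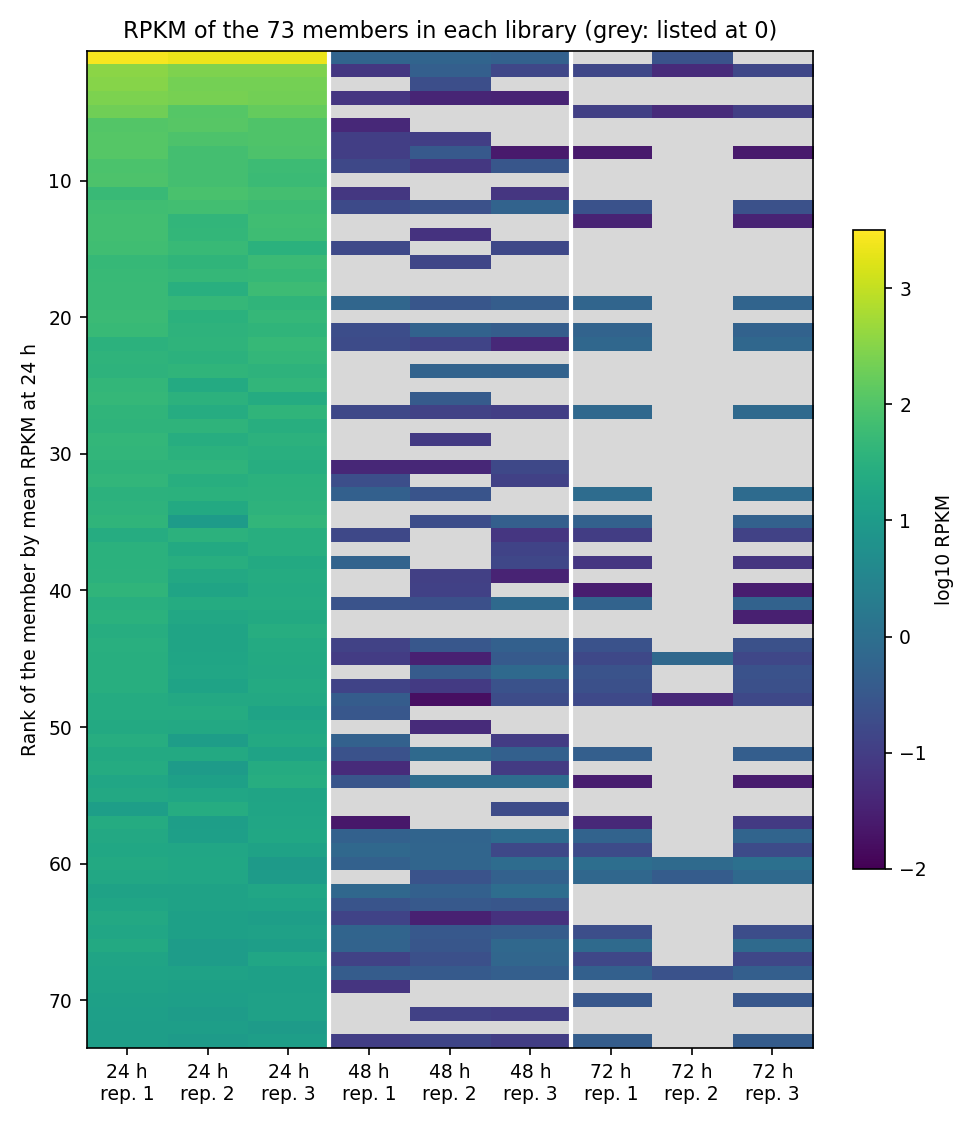
RPKM of the 73 members (rows, ordered by mean RPKM at 24 h) in the 9 libraries (columns, by time after germination), on a log10 colour scale with grey for values listed at 0. The 24 h libraries lie at 10.02 RPKM or more and the later libraries of the rule at 0.990 RPKM or less, as the rule required, and replicate 2 at 72 h is grey in 65 rows.

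The summed level of the members was low at 48 h and 72 h by the rule, and the small remainder differed between libraries. The sum was 6405, 4998 and 5280 RPKM in replicates 1, 2 and 3 at 24 h, that is 225496, 179352 and 212382 reads. It was 11.3, 12.3 and 15.1 RPKM at 48 h (562, 563 and 729 reads), and 11.7 and 2.54 RPKM in replicates 1 and 2 at 72 h (586 and 91 reads). Replicate 1 at 72 h thus lay within the range of the 48 h libraries, and replicate 2 at 72 h far below it. Over samples, the sum at 48 h was 0.232% of that at 24 h, and at 72 h it was 0.128%. Without c1697_g1 these shares were 0.384% and 0.219%.

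Counted by gene, 42, 44 and 44 members were above 0 in the 48 h libraries, and 33 and 8 were above 0 in replicates 1 and 2 at 72 h. A total of 31 members had reads at both later times, 26 at 48 h only and 3 at 72 h only. The remaining 13 had no read in the 5 later libraries of the rule, although 1 of them had 2 reads in replicate 3 at 72 h. Their 24 h means lay between 11.6 and 71.8 RPKM. Of these 13 members, 11 were the only gene of their component, against 41 of all 73 members and 3306 of the 9032 genes on at 24 h. Replicate 2 at 72 h was at 0 in 65 members, and it also listed 2.04% of the genes on at 24 h at 0, against 0.332% to 0.443% in the other later libraries. Replicate 1 at 72 h was at 0 in 40 members, against 29 to 31 in the 48 h libraries, while its summed level lay within their range. The part of replicate 2 in the low 72 h means was not tested.

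The level that was left was small in most members. The 48 h mean was a median of 0.243% of the 24 h mean, and it was under 1% in 58 members and at most 4.39%. The 72 h mean was a median of 0%, under 1% in 61 members and at most 5.46%. The 16 members without reads at 48 h were at least 415-fold to at least 8649-fold lower there than at 24 h. For the 39 members without reads in replicates 1 and 2 at 72 h the bounds ran from at least 99.95-fold to at least 7859-fold. The bounds use 3 reads over the libraries of a time, and they grow with the length and the 24 h level of the gene. They take each read as an independent count. Whether single reads or pairs were counted is not given, and with pairs the bounds would be lower.

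**Figure D2:**
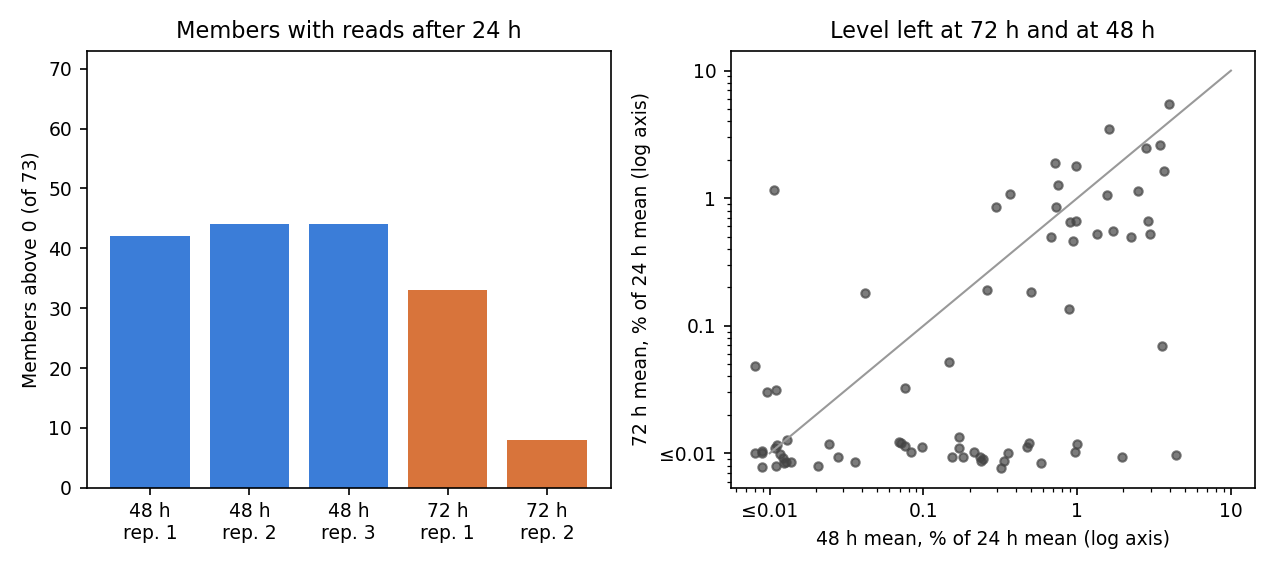
Left, bars give the members above 0 in each later library of the rule, 42, 44 and 44 at 48 h and 33 and 8 at 72 h. Right, each point is a member, with the 72 h mean as a percentage of the 24 h mean against the same at 48 h, on log axes where values up to 0.01% are drawn near 0.01 with a random shift, and the line marks equal percentages.

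The rule held each member at or under 1 RPKM at both 48 h and 72 h, so no test of 72 h against 48 h is given for the members, and their later values are a description. Over the 28428 genes fitted by limma on log2(RPKM + 1), 0% were called for 72 h against 48 h at an adjusted p under 0.05, and 11.1% had an unadjusted p under 0.05. With voom weights on the recovered reads, limma called 9 genes higher and 5 lower at 72 h.

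Among the members, both 72 h libraries lay below all 48 h libraries in 9 members (12.3%), against a background of 14.5% of the genes tested. Both lay above in 1 member (1.37%), against 15.4%. The 1 member was the member ranked 5, with its 6 and 2 reads at 72 h. Members at 0 at both times cannot be separate in either direction, so these shares and their backgrounds do not rest on like levels. Replicate 1 at 72 h alone was above all 48 h libraries in 14 members, below all of them in 9 and between or equal to them in 50. The shares over all genes were not computed for this library alone, so these counts have no background and show no difference between the times. The member closest to the upper limit ranked 60. It had 0.990 and 0.799 RPKM in replicates 1 and 2 at 72 h, against 0.512, 0.614 and 0.878 RPKM at 48 h, and the times overlapped.

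The libraries of 24 h differed among themselves in the level of the members. The rule set a minimum of 10 RPKM in each of these libraries, but not their order. Another 261 genes met the rule in replicates 2 and 3 at 24 h but not in replicate 1, and 255 of them were at 0 there. The values below therefore describe only genes that reached the limit in replicate 1. The level was highest in replicate 1 in 53 of the 73 members (72.6%), against 36.4% of the genes on at 24 h. It was lower in replicate 2 than in replicate 1 in 64 members (87.7%), against 52.0% of the genes on at 24 h. In 57 members (78.1%) it was lower in replicate 3 than in replicate 1, against 49.6% of the genes on at 24 h. The median log2 ratio of replicate 2 to replicate 1 was -0.34 in the members and -0.02 in the genes on at 24 h. For replicate 3 to replicate 1 it was -0.28 in the members and 0.00 in the genes on at 24 h. Replicates 2 and 3 lay closer to each other, with a median log2 ratio of 0.07 for replicate 3 to replicate 2 in the members. Of the first 10 members by rank, 9 had lower levels in both replicate 2 and replicate 3 than in replicate 1.

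The spread between replicates was also wider in the members. The coefficient of variation of the 24 h libraries had a median of 20.2% in the members, against 14.3% in the genes on at 24 h, and it ran from 2.40% to 56.4%. The member with the widest spread ranked 35, with 39.0, 10.6 and 41.0 RPKM in replicates 1, 2 and 3. In 8 members the highest 24 h library was at least 2 times the lowest, and this share was not computed for other genes. The median ratio of the highest to the lowest was 1.48 in the members and 1.32 in the genes on at 24 h. Replicate 1 at 24 h is also the library with 24907 genes at 0, and the part of this in the ratios was not tested. No test of the members as a list was made.

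Levels below those of replicate 1 were also seen in genes that kept more RNA later. Genes on at 24 h were grouped by their highest later level. In the 40 genes with a highest later level over 1 and up to 2 RPKM, the median log2 ratio to replicate 1 was -0.19 for replicate 2 and -0.25 for replicate 3. It was -0.17 and -0.21 in the 96 genes over 2 and up to 5 RPKM, and -0.24 and -0.19 in the 290 genes over 5 and up to 10 RPKM. In the 8533 genes over 10 RPKM it was -0.01 and 0.01. The members had the lowest median of these 5 groups for both ratios, and the genes over 10 RPKM had medians close to 0.

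**Figure D3:**
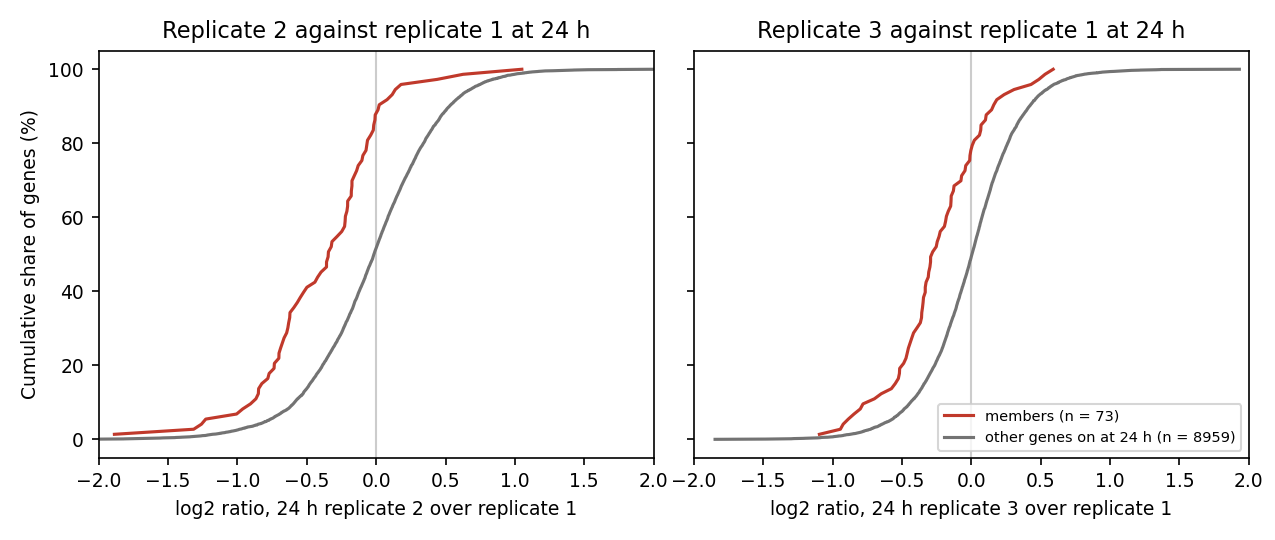
Cumulative share of genes against the log2 ratio of 24 h replicate 2 (left) or 3 (right) to replicate 1, for the 73 members (red) and the 8959 other genes on at 24 h (grey). The red curves lie to the left, with medians of -0.34 and -0.28 in the members.

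Length and assembly were not used by the rule. The recovered length of the members had a median of 1214 nucleotides, with 80% of them between 547 and 2112, a shortest gene of 226 and a longest of 3837. The median was 1588 nucleotides in the genes on at 24 h and 529 in all genes. A recovered length is the shortest that fits the values, so it may be too short in genes with few reads. Over all genes the recovered lengths ran from 5 to 50352 nucleotides, and their median is less certain than that of the members. The members were more often the only gene of their component. Of the 73, 32 (43.8%) shared a component with another gene, against 63.4% of the genes on at 24 h and 52.3% of all genes. These shares are descriptions without a test.

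Members also shared components with each other. The 73 genes came from 67 components, and 5 components held 11 of them. One component held 3 members, ranked 7, 13 and 26, with 24 h means of 99.9, 58.9 and 35.3 RPKM. Reads of similar sequences can be split between genes of 1 component, so such members are not independent of each other, and their separate levels are uncertain.

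The genes that shared a component with a member, without being members, are called mates here. They were chosen by ID and not by level, and their changes were tested. However, a mate within the limits of the rule would count as a member. Reads of similar sequences can also be split between a mate and its member. The falls of the mates therefore cannot be taken as independent of the falls that chose the members. There were 105 mates in 24 components, of which 80 passed the filter on low values. The filter asked for 1 RPKM in at least 3 of 9 columns, so the 3 libraries of 24 h could be enough. A gene admitted by these alone was under 1 RPKM later and could only fall, among the mates as in the background. At 48 h, 17 of these 80 mates were lower than at 24 h at an adjusted p under 0.05 from limma and 2 were higher, against a background of 5.53% lower and 2.08% higher among all genes tested. The 17 were 21.2% of the mates tested and came from 12 components. The median log2 change of the 80 mates was -0.16, against 0.00 for all genes. With a pseudocount of 0.01 in place of 1, 6 of the 80 mates were lower, against 780 of the 28428 genes tested. Without the filter on low values, 15 of the 105 mates were lower at 48 h, against 1231 of 54199 genes.

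At 72 h, 20 of the 80 mates (25%) were lower than at 24 h and 2 were higher, against a background of 9.42% lower and 3.88% higher. All 17 mates that were lower at 48 h were among these 20, and both comparisons share the same 24 h libraries. The changes of the mates that fell had a median of -2.35 at 48 h, from -1.06 to -8.11 on the log2 scale, and a median of -2.41 at 72 h. Outside the 3 components with the most genes, 15 of 48 mates were lower at 48 h and 17 were lower at 72 h.

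The mates that were on at 24 h were split by a limit of 5 RPKM in the later libraries. Of these 23 mates, 6 stayed at or under 5 RPKM in each later library of the rule, and 17 stayed over 5 RPKM in each. In each of the 17, the 48 h mean was between 50% and 200% of the 24 h mean, and none was called at 48 h. At 72 h, 2 of the 17 were called lower by limma, with 72 h means of 44.6% and 69.0% of the 24 h means, and 1 was called higher, with 158%. The limits leave out levels in between. A mate with 11.6, 13.3 and 9.16 RPKM at 24 h just missed the limit there. Its means were 4.90 RPKM at 48 h and 2.75 RPKM at 72 h. The highest mate that fell belonged to the component of the member ranked 3. It had 602.5, 580.4 and 497.7 RPKM at 24 h, 0.693, 1.78 and 0.757 RPKM at 48 h, and 0.0516 and 0 RPKM in replicates 1 and 2 at 72 h. It missed the rule by 1 library at 48 h, with a log2 change of -8.11 for 48 h against 24 h (standard error 0.22, adjusted p = 6.00e-08 from limma).

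A second such mate belonged to the component of the member ranked 38, and its mean at 24 h was 331.6 RPKM. It had 357.7, 389.2 and 248.1 RPKM at 24 h, 0.597, 1.15 and 0.350 RPKM at 48 h, and 0.165 and 0.142 RPKM at 72 h. Its log2 change was -7.61 at 48 h (adjusted p = 1.64e-07 from limma, standard error 0.25). Neither of these mates overlapped between 24 h and the later times.

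A mate of the member ranked 8 moved the other way at 48 h. The member had 112.2, 71.7 and 92.5 RPKM at 24 h and 0.104, 0.341 and 0.0246 RPKM at 48 h. Its mate had 0.795, 4.57 and 4.22 RPKM at 24 h, 34.1, 44.9 and 37.8 RPKM at 48 h, and 17.7 and 0.107 RPKM at 72 h. The log2 change of the mate was 3.41 at 48 h (limma, standard error 0.85, adjusted p = 0.0380). In the comparison of 72 h with 24 h it was 0.28 with an adjusted p = 0.878, where replicate 1 was high and replicate 2 was low. Over the alternatives tried, 0 to 7 mates were higher at 48 h, so calls of higher mates changed with the settings. The mate that was called higher at both times belonged to the component of the member ranked 20. It had 0.399, 0.935 and 1.31 RPKM at 24 h, 4.62, 3.54 and 4.47 RPKM at 48 h, and 5.35 and 4.22 RPKM in replicates 1 and 2 at 72 h, and all later libraries lay above those of 24 h. Its log2 change was 1.49 at 48 h (limma, standard error 0.30, adjusted p = 0.0155) and 1.64 at 72 h (standard error 0.34, adjusted p = 0.0127).

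**Figure D4:**
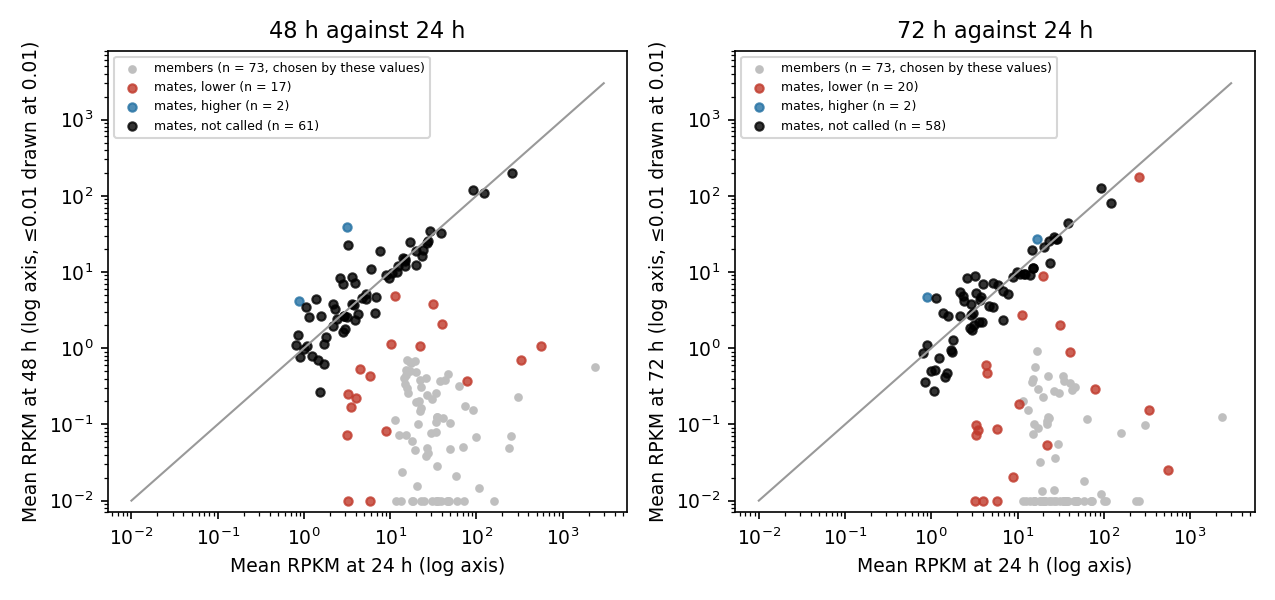
Mean RPKM at 48 h (left) or 72 h (right) against mean RPKM at 24 h on log axes, with means up to 0.01 drawn at 0.01 and a line of equal levels. Colours mark the 80 mates tested as lower (17 at 48 h, 20 at 72 h), higher (2 at each time) or not called by limma, and the 73 members are grey because these values chose them.

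The limits of the rule cut through a continuous range of levels. The highest later value of a member was 0.990 RPKM, and 5 members had one over 0.8 RPKM. Just outside, 8 genes on at 24 h had a highest later value over 1 and up to 1.2 RPKM, from 1.03 RPKM on. At the lower limit, the smallest 24 h value of a member was 10.02 RPKM, and 12 members had one of up to 12 RPKM. Just outside, 9 genes that were off later had a smallest 24 h value between 8 and 10 RPKM, with 9.28 RPKM as the nearest. The 261 genes given above would have been members by replicates 2 and 3 at 24 h alone. Of these, 255 were at 0 in replicate 1 at 24 h.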

How the data were processed

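RNA from 9 root samples was sequenced with a BGI kit. The authors deposited 1 table of RPKM values for 54199 genes, and per the labels reads were counted with HTSeq 0.6.0 (submitters' processing notes). The aligner and the assembly method are not given in the sources used here. All 9 columns were used, and 0 were left out. Whole reads were recovered from the steps of the RPKM values. For each library, 100 of the lowest values were each taken as 1 read. The total was chosen at which the most of these gave a whole length, which 58 to 93 of the 100 did. For each gene, the shortest length up to 100000 nucleotides was then sought that made all values whole (tolerance 1e-08 reads, or 1e-12 of the value).

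The members and lists were chosen with earlier results of these data known. The named IDs are the member with the highest 24 h mean, and the highest among those with the fewest later libraries above 0. Times were compared with limma 3.58.1 (R 4.3.3) on log2(RPKM + 1) with an intensity trend, in 1 fit of all times, so that they share 1 estimate of the spread. Genes at 1 RPKM or more in at least 3 of 9 columns were tested (28428), with Benjamini-Hochberg adjustment over all of them and a threshold of 0.05. The 72 h replicates 1 and 3 were averaged, giving 8 samples. Fold changes on this scale understate the change of low genes. The steps were tested on simulated data. Alternatives were other limits, pseudocounts, filters, scalings, voom weights, a replicate block and leaving out libraries.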

Additional observations from a re-analysis of the deposited data

How the results depend on the processing

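The number of members was 73 and depended on the limits, with 135 genes at a lower limit of 5 RPKM, 40 at a lower limit of 20 RPKM and 113 at an upper limit of 2 RPKM. Leaving out 1 library at a time gave 73 to 334 genes, with 334 without replicate 1 at 24 h, and 336 without both this library and replicate 2 at 72 h, an alternative chosen after seeing the data. The 48 h level was a median of 0.243% of the 24 h level, and 0.143% with the median of the libraries (0.229% to 0.310% without 1 library). The 72 h median was 0% under all 10 alternatives. For 72 h against 48 h the members' levels were capped by the rule, so their calls under the alternatives are not informative. Of the 80 mates tested, 17 were lower at 48 h, against 1571 of all 28428 genes tested. With a pseudocount of 0.01 the count was 6, against 780 of all genes. Without 1 library of 24 h or 48 h it was 13 to 16, against 797 to 1212 of all genes. At 72 h the count was 20, against 2679 of all genes, and 14 to 22 under other settings. Without 1 library of 24 h or 48 h it was 16 to 19, against 1735 to 2383 of all genes. The counts of higher mates were 0 to 7 at 48 h and 0 to 5 at 72 h, so the rise of single mates depends on the settings.

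The deviations of same-numbered samples from their group means correlated at -0.05 to 0.22 over 7 pairs, and those of other samples at -0.25 to 0.14 over 14 pairs. With n = 2 at 72 h, the deviations of its 2 samples are mirror images. Replicate 2 at 24 h thus had 0.18 with replicate 2 at 72 h and -0.18 with replicate 1. The pairs are therefore not separate observations, and these ranges cannot decide whether the numbers pair the samples. Between 24 h and 48 h the same-numbered pairs had 0.00, 0.22 and 0.16 for replicates 1, 2 and 3. Replicates 2 and 3 at 24 h correlated best with their own number at 48 h, and replicate 1 did not. The pairing was left undecided, and the main fit did not pair the samples. With a replicate block, 17 mates were lower at 48 h and 20 at 72 h, against 1536 and 2545 of the 28428 genes tested. The levels left after 24 h rest on at most 82 reads in a library, which limits any comparison between 48 h and 72 h.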

Other observations

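The same limits turned round gave few genes. A total of 4 genes were at most 1 RPKM in the 24 h libraries and at least 10 RPKM in each later library of the rule. No gene was on only at 48 h, on only at 72 h, or on at 24 h and 48 h and off at 72 h by these limits. These counts come from the choice of limits and carry no test.

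Among the 171 later values of the members above 0, 126 (73.7%) were even numbers of reads, against 56.3% over all genes in the same range of up to 82 reads. These shares are not on a like footing. In genes with few reads the recovered length may be too short, and the recovered reads are then too few as well. An even number of reads can become odd in this way. The part of the recovery step in the difference between the shares was not tested. The unit that was counted, single reads or pairs, is not given in the sources used here.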
